A study of Mus musculus with 8 samples.

Results

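The nuclei described here are those that the study's own annotation calls NFOL, for newly formed oligodendrocytes. They were chosen by that annotation alone and number 465 of 61949 nuclei, beside 1522 nuclei annotated OPC (oligodendrocyte precursor cells) and 5612 annotated MOL (mature oligodendrocytes). Brains of C57BL6/J mice were taken at 6 months of age, and nuclei of the hemispheres, from which the cerebellum and the olfactory bulb had been removed, were subjected to RNA sequencing. There were 4 genotypes with 2 libraries each. WT mice carried neither mutation, Cnp-/- mice lacked CNP, an enzyme of the myelin sheath, 5xFAD mice carried transgenes, mutant human APP among them, that are driven in neurons by the Thy1 promoter, and Cnp-/- 5xFAD mice carried both. The study used Cnp loss to ask how defective myelin acts on amyloid deposition. The labels call the libraries replicates, and p-values measure the spread between these libraries.

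Oligodendrocytes arise from precursors that carry the growth factor receptor PDGFRA. A precursor that commits to differentiation loses this receptor and passes through a short stage in which Bcas1, the choline phosphodiesterase gene Enpp6 and the Wnt pathway transcription factor gene Tcf7l2 are high, before myelin genes such as Mbp, Mag and Mog reach their mature level. In the adult brain this stage is rare, and its genes are therefore used to read ongoing oligodendrocyte formation.

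In the mm10 (GRCm38) build used for the files, Bcas1 lies at chr2:170346991-170427845 on the minus strand, Enpp6 at chr8:46986887-47096762 on the plus strand and Tcf7l2 at chr19:55741820-55933654 on the plus strand, each annotated as protein coding. Of the genes that set the best-marked nuclei apart below, Enpp6 and Bmp4, which encodes a secreted bone morphogenetic protein, are shown with the 250 bases before 1 annotated transcription start each, from RefSeq (GRCm38.p6). The GENCODE transcripts number 6 for Enpp6 and 4 for Bmp4, and 1 of each holds the bases that follow the start used here. The Enpp6 stretch is chr8:46986637-46986886 on the plus strand and the Bmp4 stretch is chr14:46390670-46390919 on the minus strand. The letters searched on both strands were ACAAAG and ACAATG, short cores bound by SOX factors, and CAGCTG, an E-box bound by basic helix-loop-helix factors, and the 2 sets do not overlap in letters. Capitals mark a SOX core.
Enpp6: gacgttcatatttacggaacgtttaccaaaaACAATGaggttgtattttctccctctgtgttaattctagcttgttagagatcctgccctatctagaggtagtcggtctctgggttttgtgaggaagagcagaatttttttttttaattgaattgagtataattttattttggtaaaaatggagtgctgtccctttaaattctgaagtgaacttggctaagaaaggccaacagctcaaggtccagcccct
Bmp4: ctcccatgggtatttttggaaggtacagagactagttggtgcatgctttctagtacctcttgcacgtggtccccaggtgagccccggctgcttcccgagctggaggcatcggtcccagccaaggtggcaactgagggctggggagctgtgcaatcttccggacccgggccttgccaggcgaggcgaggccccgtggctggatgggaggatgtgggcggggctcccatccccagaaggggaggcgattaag
The Enpp6 stretch held 1 SOX core and no E-box, and the Bmp4 stretch held neither. SOX cores were found in 25.2% of the 32851 promoters of this length and the E-box in 13.0%, so the Enpp6 match is an ordinary one.

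The 8 libraries held 6801 to 8824 nuclei and 68905044 to 82399061 unique molecular identifiers (UMIs, counted molecules) each. The nuclei annotated NFOL numbered 37 and 22 in WT, 51 and 48 in Cnp-/-, 104 and 73 in 5xFAD, and 65 and 65 in Cnp-/- 5xFAD, and their summed counts were 152443 to 555269 UMIs per library. Their median depth per nucleus was 6536 and 6875 UMIs in WT, 4699 and 4392.5 in Cnp-/-, 4822.5 and 4813 in 5xFAD, and 5267 and 4143 in Cnp-/- 5xFAD. The mean of these medians was 4625 with Cnp loss and 5762 without (−1136 UMIs, exact permutation test over 70 relabellings, two-sided, p = 0.143), and 4761 with 5xFAD and 5626 without (−864 UMIs, p = 0.314 by the same exact test). Neither difference passed the threshold. WT replicate 2 is the shallowest profile and rests on 22 nuclei. Of all barcodes, 454 occurred in more than 1 library, and 7 of these belonged to nuclei annotated NFOL.

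The label was checked against its markers first. Bcas1, Enpp6 and Tcf7l2 were each higher in the sums of nuclei annotated NFOL than in OPC and MOL. In CPM, the counts of a gene scaled to a common total and compared only within a gene, the mean over the 8 libraries of Bcas1 was 1359 ± 392 (SD) in NFOL against 529 ± 63.7 in OPC and 977 ± 88.8 in MOL. Tcf7l2 stood at 576 ± 228 in NFOL against 184 ± 27.7 in OPC and 98.4 ± 18.9 in MOL. Enpp6 was at 210 ± 63.3 in NFOL, 8.17 ± 10.4 in OPC and 115 ± 67.5 in MOL. These are the genes by which such a cluster is named, so the differences are a description.

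The nuclei under the label were not of one kind. For each nucleus the UMIs of 15 committed precursor and newly formed genes (Bcas1, Enpp6, Tcf7l2, Gpr17, Neu4, Bmp4, Itpr2, Casr, Prom1, Rras2, Cemip2, Mpzl1, Fyn, Sirt2 and Nfasc) were summed per 10000 UMIs. The score fell into a low and a high range, and 117 nuclei (25.2%) lay above 100 while 348 (74.8%) lay at or under it. This cut was chosen after the scores were seen. Only 9 of the 465 nuclei lay within 20 of it. The median score was 222 above the cut and 21.8 at or under it, against 22.3 in OPC and 27.2 in MOL, so that by these genes the larger set stood at the level of the 2 neighbouring classes. Among nuclei annotated OPC 16 of 1522 exceeded the cut, and among MOL 16 of 5612.

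**Figure D1:**
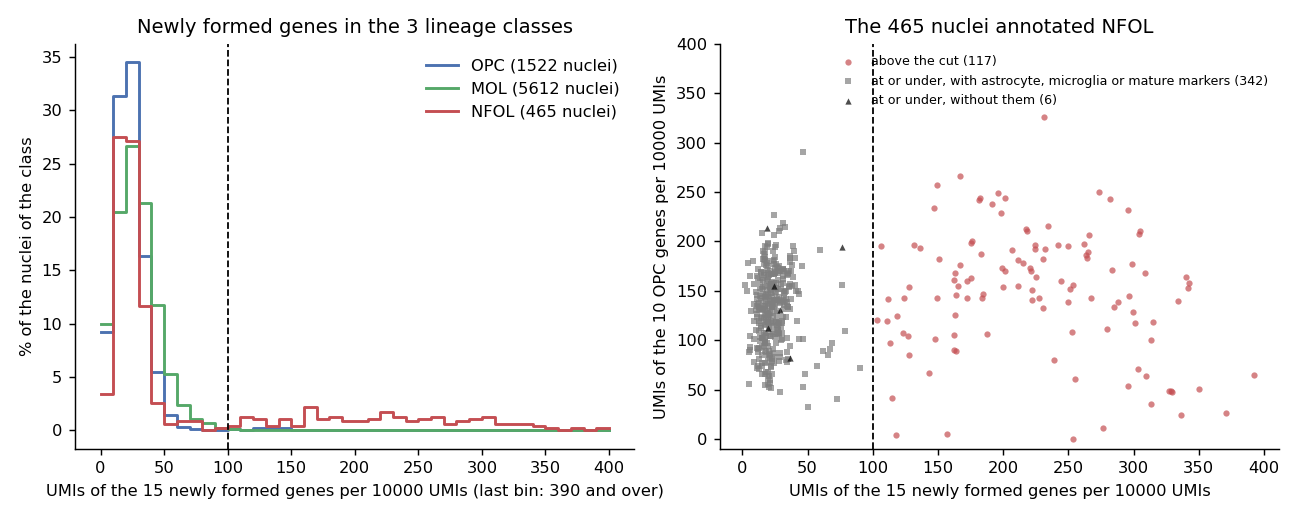
Left, distribution of the newly formed score (UMIs of 15 genes per 10000 UMIs) in percent of the nuclei of each class; right, each of the 465 nuclei annotated NFOL by this score and by the same score over 10 OPC genes, with the dashed line at the cut of 100. Most NFOL nuclei lie in the low range shared with OPC and MOL, and 117 form a spread-out high range.

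The 117 nuclei above the cut had the newly formed pattern. With all libraries pooled, Bcas1 stood at 5018 CPM above the cut and 498 CPM at or under it, Enpp6 at 938 and 34.0 CPM, and Tcf7l2 at 1869 and 278 CPM. Fyn, a Src-family kinase of oligodendrocyte process outgrowth, stood at 4435 and 358 CPM, Nfasc, which encodes the adhesion molecule neurofascin, at 4638 and 347 CPM, and Itpr2, an intracellular calcium channel gene, at 1865 and 407 CPM. Bmp4 was at 268 and 8.50 CPM. Of the 15 genes, 14 were higher above the cut than in every annotated class of the series, which the cut itself favours. Genes off the list also marked these nuclei: the long non-coding RNA 9630013A20Rik reached 2150 CPM above the cut, Tmem108 3702 CPM, Cnksr3, which encodes a scaffold protein, 1145 CPM and the kinesin gene Kif19a 437 CPM, which were 40.3, 10.2, 17.0 and 25.8 times the highest level in any class other than NFOL or at or under the cut. These genes were chosen after their values were seen.

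Nuclei above the cut were present in every library. Enpp6 is 1 of the 15 genes of the score, so a gap across the cut follows from the cut itself, and its levels are given as a description. Above the cut it was at 1060 and 978 CPM in WT, 1192 and 830 in Cnp-/-, 966 and 797 in 5xFAD, and 767 and 1155 in Cnp-/- 5xFAD. At or under the cut it ranged from 3.79 to 52.0 CPM over the 8 libraries. The above-cut values of WT rest on few nuclei, 3 in replicate 1 and 5 in replicate 2.

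The precursor receptor separated the 2 sets as well, while myelin and mature markers did so unevenly. A UMI of Pdgfra was present in 5 of 117 nuclei above the cut (4.27%), in 295 of 348 at or under it (84.8%), in 85.9% of OPC and in 0.0713% of MOL. After each nucleus was thinned to 1894 UMIs, leaving out 7, 6, 152 and 3882 shallower nuclei, these shares were 1.82%, 55.8%, 74.1% and 0.231%. Top2a, a topoisomerase of dividing cells, was at 0 CPM above the cut and 13.2 CPM at or under it, where 7 of 348 nuclei held a UMI. Mki67, another gene of dividing cells, had a UMI in 1 of 117 and 5 of 348 nuclei. These counts are too few to read a difference in division. Of the myelin genes, Mbp, which encodes myelin basic protein, stood at 3812 CPM above the cut and 1091 CPM at or under it and Mag at 429 and 265 CPM, whereas Mog was at 161 and 247 CPM and Mobp at 264 and 293 CPM. The 15 mature oligodendrocyte markers summed to 1250 CPM above the cut, 2048 CPM at or under it and 10944 CPM in MOL. The nuclei above the cut therefore seldom held the precursor receptor, while most of those at or under it carried it, at equal depth less often than OPC did. The summed level of the 10 OPC genes did not separate them and was 14673 CPM above the cut, 12497 CPM at or under it, 21544 CPM in OPC and 38.5 CPM in MOL.

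The nuclei at or under the cut joined precursor transcripts with those of another class. Each marker list received a cut at the 99th percentile of its score in OPC or MOL nuclei, whichever class should lack it, a rule set after the data were seen. By these cuts all 348 nuclei carried OPC markers and 342 (98.3%) also carried astrocyte, microglia or mature oligodendrocyte markers. These were astrocyte markers alone in 113 nuclei, microglia markers alone in 56, mature markers alone in 120 and 2 or more of these lists in 53. Above the newly formed cut the same combination was seen in 31 of 117 nuclei (26.5%), where 31 nuclei exceeded the mature cut, 3 the astrocyte cut and 1 the microglia cut. It was seen in 38 of 1522 OPC nuclei (2.50%) and 57 of 5612 MOL nuclei (1.02%), low shares that the rule itself fixes, since the cuts were set on these nuclei. At 1894 UMIs per nucleus it was seen in 329 of 342 nuclei at or under the newly formed cut (96.2%), 41 of 110 above it (37.3%), 5.04% of OPC and 1.21% of MOL.

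Transcripts that mark opposite ends of the lineage occurred in the same nuclei. Pdgfra together with Mog or Mag, which encode proteins of the myelin surface, was found in 151 of 348 nuclei at or under the cut (43.4%, and 21.9% after thinning), in 4.27% above it (1.82% after thinning), in 4.73% of OPC (2.19% after thinning) and in 0.0713% of MOL. In pooled levels, the astrocyte glutamate transporter gene Slc1a2 stood at 1745 CPM at or under the cut and 167 CPM above it, and the microglial phosphatase gene Inpp5d at 153 and 7.60 CPM. Over whole lists, the 12 astrocyte markers summed to 8771 CPM at or under the cut and 798 CPM above it, and the 14 microglia markers to 903 and 150 CPM, against 24876 CPM in astrocytes and 9148 CPM in microglia.

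Depth and a doublet score moved with this split. The median UMI count was 5229 at or under the cut, 4198 above it, 3036 in OPC, 1515 in MOL, 2636 in astrocytes and 1395 in microglia. The median Scrublet score, which rises with likeness to simulated pairs of nuclei, was 0.1397 at or under the cut, 0.0777 above it, 0.0052 in OPC and 0.0148 in MOL. Scrublet at its own threshold marked 55 of 61949 nuclei (0.0888%) and none of those annotated NFOL, too few to count as a working call. Whether droplets with more than 1 nucleus lie behind the mixed profiles was not tested. The results below are for all 465 nuclei, and for the sets on either side of the cut where this is stated.

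**Figure D2:**
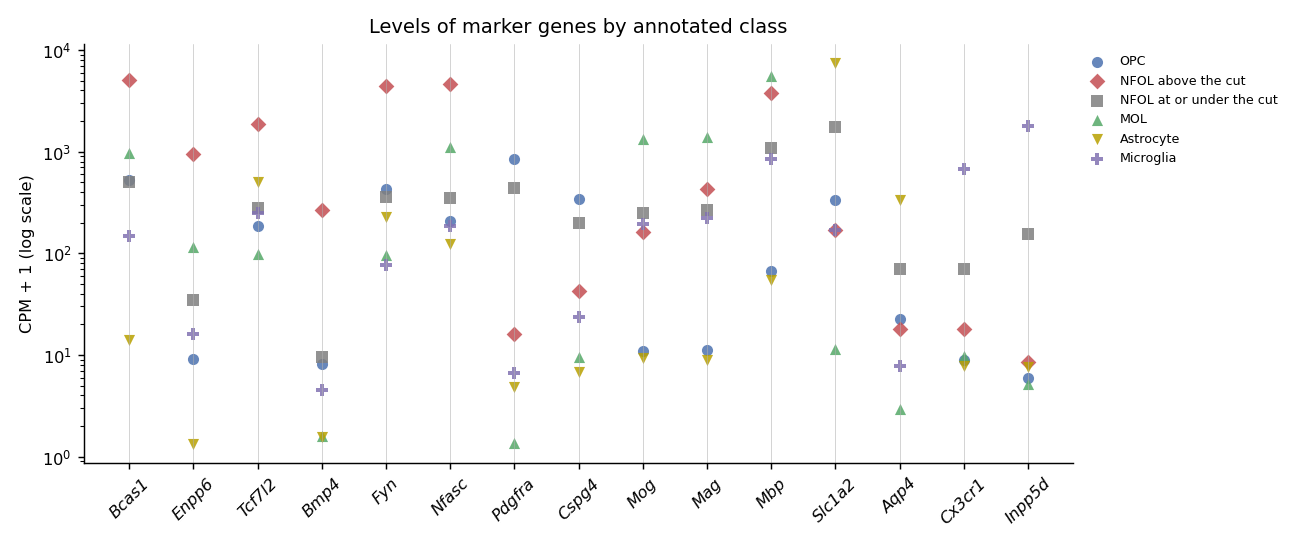
Levels of 15 marker genes in CPM plus 1 (log axis) in OPC, MOL, astrocytes and microglia (means over libraries) and in NFOL nuclei above and at or under the cut (pooled over libraries). Diamonds lead for the first 6 genes, from Bcas1 to Nfasc, whereas squares lie between OPC and the astrocyte or microglia level for Slc1a2, Aqp4, Cx3cr1 and Inpp5d.

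Several of the genes most particular to the label against OPC and MOL belonged to other classes. Among genes at 50 CPM or more in NFOL, and by the ratio of the NFOL mean to the higher of the OPC and MOL means, the leading genes included Gm13187 (43.4 times), the microglial transcription factor gene Runx1 (28.8 times), the immune gene Ly86 (28.7 times), Gli3 (26.0 times), Inpp5d (23.7 times) and Prdm16 (21.2 times). Runx1, Ly86, Inpp5d, Gli3 and Prdm16 were all higher in microglia or astrocytes than in NFOL, where they stood at 0.0650 to 0.229 of the level in the highest class. At this minimum, 7 genes were at least 2 times higher in NFOL than in every other class and above OPC and MOL in all libraries: Gm13187, 9630013A20Rik, Kif19a, Cnksr3, Fyn, Pik3r3 and Tmem108, at 2.31 to 13.1 times. Of these, 9630013A20Rik, Kif19a, Cnksr3, Tmem108 and Fyn are named above for the nuclei over the cut. Pik3r3 (2180.5 CPM above the cut and 123 CPM at or under it) and Gm13187 (536 and 9.44 CPM) were higher there too.

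The share of the lineage that carried the label was higher in every library with 5xFAD, a difference that did not pass the threshold after adjustment. Among OPC, NFOL and MOL nuclei together, NFOL made up 4.26% and 3.96% in WT, 4.25% and 5.49% in Cnp-/-, 7.27% and 8.94% in 5xFAD, and 7.09% and 6.94% in Cnp-/- 5xFAD. The 4 libraries with 5xFAD all lay above the 4 without. The means were 7.56% ± 0.927 (SD, n = 4) with 5xFAD and 4.49% ± 0.679 (n = 4) without, a difference of 3.07 points (exact permutation test, two-sided, p = 0.0286, the smallest that 70 relabellings allow, and 0.0571 after Benjamini-Hochberg adjustment over 6 share comparisons). Among OPC and NFOL alone the difference was 7.27 points (26.5% against 19.3%) and among all nuclei 0.538 points (1.03% against 0.489%), with the same p-values. Counts of nuclei cannot tell apart more nuclei of this label and better recovery of them.

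Cnp loss did not shift these shares beyond the spread. NFOL made up 5.94% ± 1.34 of the lineage with Cnp loss and 6.11% ± 2.41 without (n = 4 each), a difference of −0.163 points (exact permutation test, p = 0.83). The nuclei above the cut, taken alone, formed 0.346% and 0.899% of the lineage in WT, 0.917% and 1.71% in Cnp-/-, 1.96% and 1.71% in 5xFAD, and 2.40% and 2.03% in Cnp-/- 5xFAD. The means were 2.02% ± 0.284 with 5xFAD and 0.969% ± 0.563 without (exact permutation p = 0.0571, adjusted 0.16 over 14 comparisons added after the data were seen). At a cut of 60, 80 or 150 in place of 100 the difference was 1.10, 1.03 or 1.09 points, at p = 0.0286, 0.0571 and 0.0286 by the same exact test. With the OPC and MOL nuclei above the cut included, the share was 2.36% ± 0.396 with 5xFAD and 1.49% ± 0.80 without (exact permutation p = 0.114, adjusted 0.229). Nuclei at or under the cut made up 5.53% ± 1.15 with 5xFAD and 3.52% ± 0.395 without (exact permutation p = 0.0286, adjusted 0.1). Of the difference of 3.07 points, 2.01 points lay in the nuclei at or under the cut, which make up 74.8% of the label, and 1.06 points in those above it.

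**Figure D3:**
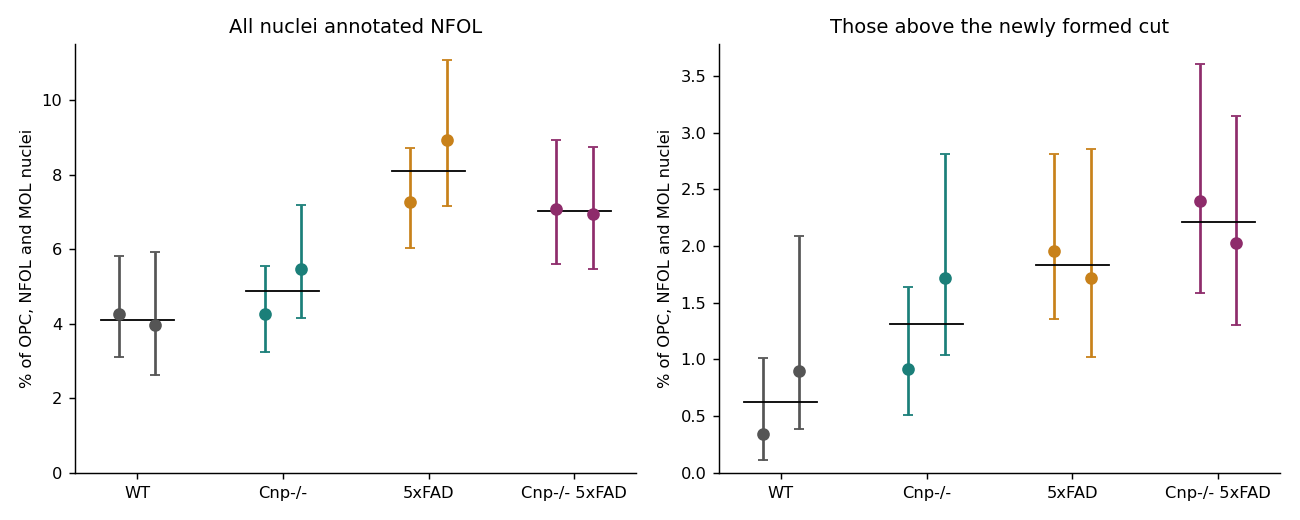
Nuclei annotated NFOL (left) and those above the newly formed cut (right) in percent of OPC, NFOL and MOL nuclei, by genotype. Each point is a library with its 95% Wilson interval, which covers counting error only, and the line is the mean of 2 libraries. On the left the 4 libraries with 5xFAD lie at 6.94% to 8.94%, above 3.96% to 5.49% in the others.

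The makeup of the label stood apart with Cnp loss in comparisons that did not pass the threshold after adjustment. The share of NFOL nuclei over the astrocyte cut was 64.9% and 36.4% in WT, 19.6% and 22.9% in Cnp-/-, 31.7% and 46.6% in 5xFAD, and 26.2% and 18.5% in Cnp-/- 5xFAD. The share over the mature oligodendrocyte cut was 18.9% and 40.9%, 54.9% and 56.3%, 31.7% and 37.0%, and 55.4% and 50.8% in the same order. In both, the 4 libraries with Cnp loss did not overlap the 4 without. Astrocyte markers were found in 21.8% ± 3.47 of nuclei with Cnp loss and 44.9% ± 14.7 without, and mature markers in 54.3% ± 2.44 and 32.1% ± 9.58 (exact permutation p = 0.0286 for each, adjusted 0.1). After thinning the astrocyte shares were 24.1% and 46.0% and the mature shares 58.0% and 35.2%, each again at an exact p of 0.0286. Microglia markers were found in 21.4% ± 3.42 of nuclei with Cnp loss and 11% ± 7.97 without (exact p = 0.0286, adjusted 0.1, and 0.0571 after thinning). Without WT replicate 2, which stood lowest for microglia markers and holds 22 nuclei, this difference was 6.73 points in place of 10.4 (exact p = 0.0571). WT replicate 1 stood highest for astrocyte and lowest for mature markers. Without it the astrocyte difference was −16.4 points in place of −23.1 and the mature difference 17.8 in place of 22.2, each at an exact p of 0.0571, the smallest that 7 libraries allow.

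**Figure D4:**
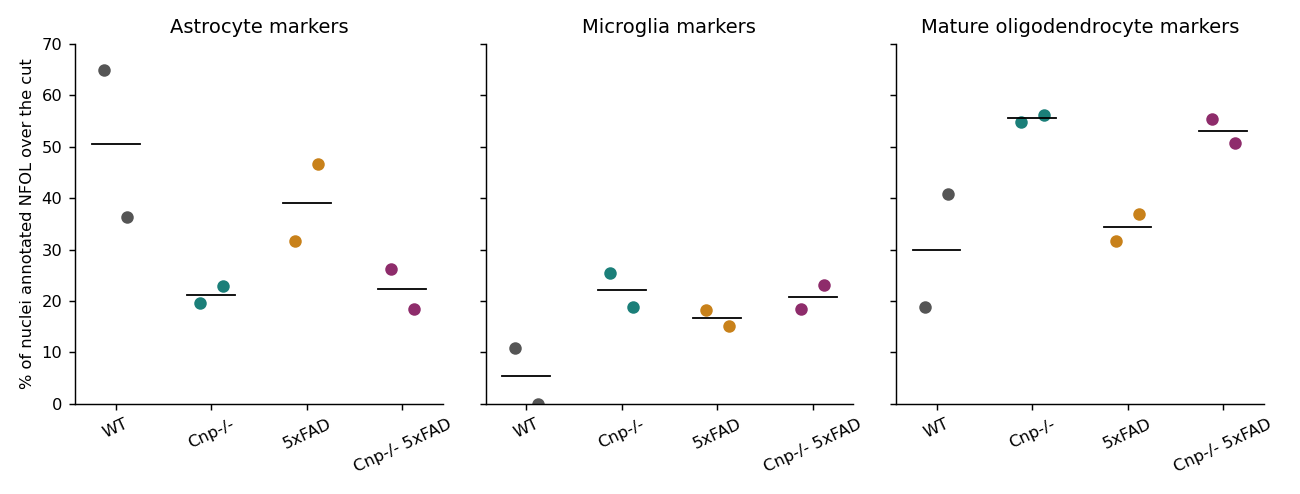
Percent of nuclei annotated NFOL that exceeded the cut for astrocyte, microglia and mature oligodendrocyte markers, by genotype, with a point for each library and a line at the mean of 2 libraries. The Cnp-/- and Cnp-/- 5xFAD libraries lie at 18.5% to 26.2% for astrocyte markers, under every other library, and at 50.8% to 56.3% for mature markers, over every other library.

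The targeted gene followed the labels. Cnp (chr11:100574904-100591729, plus strand) was at 19.3 and 118 CPM in NFOL nuclei of WT, 10.1 and 8.62 in Cnp-/-, 54.0 and 64.3 in 5xFAD, and 15.3 and 14.9 in Cnp-/- 5xFAD. The libraries with Cnp loss were lower without overlap, although WT replicate 1 was close to them. The log2 fold change was −2.26 ± 0.51 (SE; edgeR quasi-likelihood test, Benjamini-Hochberg adjusted p = 0.0366). In MOL, where 67 of 8761 genes (0.765%) passed for Cnp loss, it was −3.32 (adjusted p = 0.000801). Of the transgene-linked genes, App was at 177 and 348 CPM in WT, 411 and 276 in 5xFAD, 463 and 392 in Cnp-/-, and 559 and 633 in Cnp-/- 5xFAD, which passed neither for 5xFAD (log2 0.45 ± 0.20, adjusted p = 0.806) nor for Cnp loss (0.79 ± 0.20, adjusted p = 0.0653). Thy1 was at 0 in 7 libraries and at 15.3 CPM in the other.

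Cnp loss changed oligodendrocyte and astrocyte genes in opposite directions in the summed NFOL profiles. Among 7248 genes tested, 116 (1.6%) passed an adjusted p of 0.05, of which 58 (0.8%) were higher and 58 (0.8%) lower with Cnp loss. The even split was not kept with fewer calls: DESeq2 called 38 higher and 24 lower, the fit without Cnp-/- replicate 1 called 12 and 3, and that without Cnp-/- 5xFAD replicate 2 called 44 and 15. All 116 genes kept their direction in these 3 fits, which reuse the counts by which the genes were called, so this is no separate support. Of the 58 higher genes, 49 (84.5%) had their highest level outside NFOL in MOL, compared with 18.1% of all genes tested. Of the 58 lower genes, 46 (79.3%) had it in astrocytes, compared with 14.5% of all genes tested. Changes in these sums cannot be told apart from the differing share of nuclei with astrocyte or mature markers. Nor can they be told apart from the share of NFOL nuclei above the newly formed cut. That share was 29.0% ± 5.29 with Cnp loss and 19.2% ± 8.06 without (exact permutation p = 0.0857, adjusted 0.2). Without the nuclei over the astrocyte cut, 5 of 5505 genes (0.0908%) passed, and without those over the astrocyte or microglia cut 10 of 3853 (0.26%).

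The genes that rose included several of the myelin sheath. Mbp was at 512 and 1174 CPM in WT, 1360 and 1003 in 5xFAD, 2190 and 2137 in Cnp-/-, and 2659 and 1905 in Cnp-/- 5xFAD. It was higher in all 4 libraries with Cnp loss (log2 fold change 1.18 ± 0.21, adjusted p = 0.0151). It passed at or under the newly formed cut (1.06, adjusted p = 0.00458) and not above it (0.93, adjusted p = 0.1). Of the 21 myelin protein and sheath lipid genes tested, 6 rose (Mbp, Mag, Cldn11, Opalin, Tspan2 and Aspa) and 1 fell (Cnp), with a median of 0.48 against 0.01 over all genes. Without WT replicate 1, the library that stood apart in astrocyte and mature markers, of these 6 only Mbp passed (0.93, adjusted p = 0.00822), while Tspan2 (0.93, adjusted p = 0.0645), Mag (0.78, 0.0932), Opalin (0.96, 0.121), Aspa (0.89, 0.121) and Cldn11 (0.85, 0.138) kept a fold change above 0 by the same edgeR test. Mag passed on neither side of the newly formed cut (2.14, adjusted p = 0.0740, above it and 0.66, adjusted p = 0.0729, at or under it). Opalin, which encodes an oligodendrocyte membrane protein, stood at 114 ± 15 CPM with Cnp loss and 50.7 ± 15.4 without, and Aspa, the enzyme that splits N-acetylaspartate, at 293 ± 68.0 and 137 ± 50.2. Of 13 mature oligodendrocyte markers tested, 3 rose (Mag, Opalin and Aspa, median 0.62). A fold change above 0 was seen in 9 of the 13, and the rest did not go this way. Among 21 lineage transcription factors 2 rose, the zinc finger genes Zfp536 (1.02 ± 0.19, adjusted p = 0.0154) and St18 (0.87 ± 0.19, adjusted p = 0.0349), with a list median of 0.14. Without WT replicate 1 they stood at 0.87 (adjusted p = 0.0409) for Zfp536 and 0.62 (0.0513) for St18. Above the newly formed cut St18 was at 0.27 (adjusted p = 0.684) and Zfp536 at 0.78 (0.447). At or under it both passed, at 0.94 (0.0158) and 1.09 (0.00164). Without the nuclei over the astrocyte or microglia cut they were at 0.23 (0.793) and 0.55 (0.416).

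Other genes that rose encode signalling and cytoskeletal proteins, and the rises named here were not particular to NFOL. In MOL, Tmod1 (log2 1.37, adjusted p = 0.00778), Prickle1 (1.25, 0.0244), St3gal1 (1.35, 0.0232), Cldn14 (0.964, 0.0326) and Rasal1 (1.24, 0.0357) also passed for Cnp loss by the edgeR test. Smad7 (0.696, 0.0518), Sytl2 (0.667, 0.0743) and Dusp10 (0.885, 0.0812) were above 0 in MOL and did not pass. The values that follow are those in NFOL. Prickle1, of the planar cell polarity pathway (chr15:93499114-93595891, minus strand), was at 80.9 and 118 CPM in WT, 236 and 169 in 5xFAD, 416 and 435 in Cnp-/-, and 506 and 383 in Cnp-/- 5xFAD. The groups did not overlap (1.65 ± 0.19, adjusted p = 0.00100). Tmod1, which caps actin filaments, stood at 176 ± 11 CPM with Cnp loss and 48.1 ± 17.8 without (1.95 ± 0.24, adjusted p = 0.00100). Sytl2, a vesicle tethering gene, stood at 266 ± 39.4 and 87.4 ± 35.3 CPM (1.70 ± 0.19, adjusted p = 0.00100). The largest rises were in genes of low level: Rasal1, which inactivates Ras (2.55), the tight junction gene Cldn14 (2.48), the MAP kinase phosphatase gene Dusp10 (2.30) and the sialyltransferase gene St3gal1 (2.21), at 49.1, 88.8, 52.4 and 40.8 CPM with Cnp loss. Without WT replicate 1, Cldn14 passed (2.14, adjusted p = 0.0108) and Rasal1 (4.02, 0.0615), Dusp10 (2.36, 0.0717) and St3gal1 (2.00, 0.110) did not. In the list of Wnt, Notch and BMP genes, 1 of 17 rose, Smad7, which inhibits BMP and TGF-beta signalling (1.35 ± 0.19, adjusted p = 0.00307), and 1 fell, the receptor gene Bmpr1b (−1.19 ± 0.20, adjusted p = 0.0112), with a list median of −0.26. Without WT replicate 1 the value for Bmpr1b was −0.99 (adjusted p = 0.0663).

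The genes that fell were for the most part astrocyte genes. Trpm3, a cation channel gene, was at 1356 and 1502 CPM in WT, 611 and 777 in 5xFAD, 449 and 396 in Cnp-/-, and 483 and 383 in Cnp-/- 5xFAD. WT stood highest and the groups did not overlap (−1.19 ± 0.16, adjusted p = 0.00187). Of the 12 astrocyte markers 4 fell, among them Aldh1l1, a folate enzyme gene (−1.41), the bicarbonate transporter gene Slc4a4 (−1.14) and the glypican gene Gpc5 (−0.64), with a list median of −0.84. Without WT replicate 1 Slc4a4 passed (−0.96, adjusted p = 0.0255), and Gpc5 (−0.51, 0.0645) and Aldh1l1 (−1.23, 0.238) kept their direction and did not pass. Slc6a11, a GABA transporter gene, stood at 65.9 ± 19.9 CPM with Cnp loss and 158 ± 47.9 without, and Itih3, which encodes an extracellular matrix-binding protein, at 9.24 ± 5.89 and 44.5 ± 11.6. Without WT replicate 1 neither Slc6a11 (−1.11, adjusted p = 0.128) nor Itih3 (−2.28, adjusted p = 0.0901) passed. The summed level of the 12 astrocyte markers was 5132 to 5539 CPM with Cnp loss and 7321 to 12068 CPM without, and that of the 14 microglia markers 702 to 1095 and 203 to 890 CPM. Of these 14, 9 were tested, none passed, and all 9 had a fold change above 0.

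**Figure D5:**
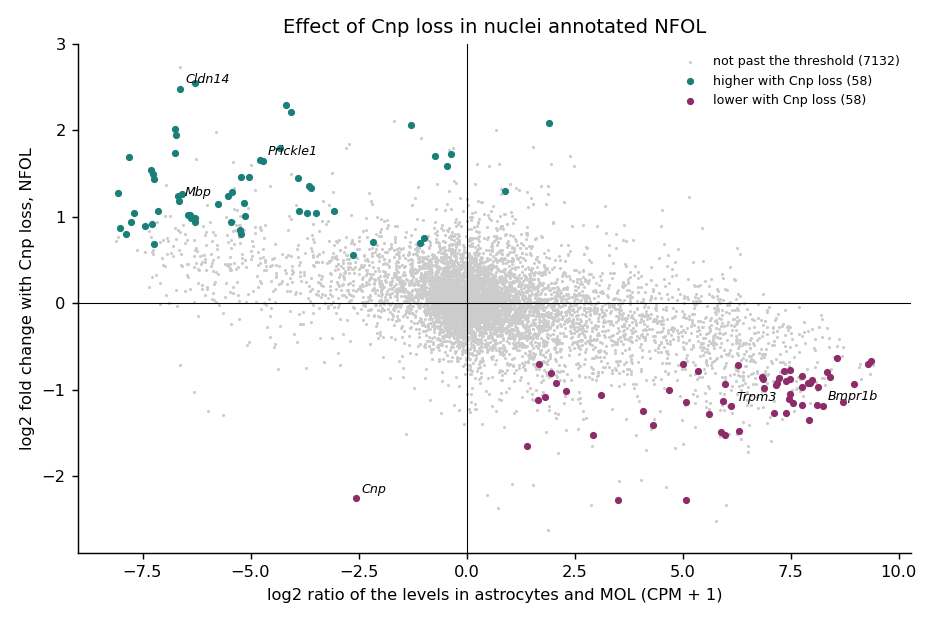
Log2 fold change with Cnp loss in the summed NFOL profiles (vertical) against the log2 ratio of each gene's level in astrocytes to that in MOL (horizontal, CPM plus 1), for 7248 genes. Genes that rose lie mainly to the left, on the side of MOL, and genes that fell mainly to the right, on the side of astrocytes, with Cnp itself at the lower left.

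Few of these calls were met again in fits that left out nuclei by their astrocyte or microglia markers. Without nuclei over the astrocyte cut, 3 genes passed as higher, Prickle1 (1.34, adjusted p = 0.0154), Tmod1 (1.39) and Kcnip4, a potassium channel subunit gene (2.32), and 2 as lower, Cnp (−2.75, adjusted p = 0.0243) and Anln, which encodes an actin-binding protein (−1.99, adjusted p = 0.0133). Anln is on the list of mature oligodendrocyte markers, of which others rose in all NFOL nuclei. The median was 1.24 over the 58 risen genes in all NFOL nuclei and 0.66 over the 57 of them still tested without the marked nuclei, all 57 above 0. It was −0.996 over the 58 fallen genes and −0.44 over the 40 still tested, of which 34 were below 0 and 6 above, so these medians rest on different sets. Prickle1 also passed at or under the newly formed cut (1.62, adjusted p = 0.000701) and not above it (1.18 ± 0.40, adjusted p = 0.177). Fewer nuclei and genes enter these fits.

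In the nuclei above the newly formed cut, 9 of 1475 genes (0.61%) passed for Cnp loss, all higher, and they were named after their values were seen. Csmd2 was at 245 and 284 CPM in WT, 580 and 519 in 5xFAD, 1110 and 918 in Cnp-/-, and 1279 and 949 in Cnp-/- 5xFAD (1.51 ± 0.29, adjusted p = 0.0314). Klhl2, which encodes a ubiquitin ligase adaptor, was at 81.5 and 158 CPM in WT, 209 and 241 in 5xFAD, 514 and 547 in Cnp-/-, and 866 and 467 in Cnp-/- 5xFAD (1.84 ± 0.37, adjusted p = 0.0342). In both genes WT was lowest, but its values rest on few counts from 3 nuclei in replicate 1 and 5 in replicate 2. The order of WT and 5xFAD is therefore uncertain. The others were Prr5l, Slc24a2, Prickle2, Map7, Eml1, Cntn1 and Smad7. Of the 9 genes, 7 were higher in MOL than in the pooled nuclei above the cut, and Csmd2 and Cntn1 were not. The same share over all 1475 genes is not given here, so the 7 have no background to be read against. At or under the cut, 120 of 6524 genes (1.84%) passed. The WT profiles above the cut hold 12264 and 31684 UMIs, so a value of 0, as for Prr5l in both, allows up to 3 counts in each.

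The newly formed genes themselves did not pass for Cnp loss. Of 14 tested none was called, 13 had a fold change above 0, and the median was 0.35. Bcas1 was at 551 and 1614 CPM in WT, 1118.5 and 1435 in Cnp-/-, 1732.5 and 1198.5 in 5xFAD, and 1655 and 1569 in Cnp-/- 5xFAD. WT replicate 1 stood apart and the groups overlapped (0.21 ± 0.24, adjusted p = 0.799). Enpp6 (0.45 ± 0.26, adjusted p = 0.497) and Tcf7l2 (0.57 ± 0.26, adjusted p = 0.362) did not pass either. Nfasc was nearest to the threshold (1.13 ± 0.28, adjusted p = 0.0509), at 737 ± 386 CPM without Cnp loss and 1532 ± 603 with it. Within the nuclei above the cut, which were chosen by a score that includes Bcas1, the gene was at 5871 ± 393 CPM without Cnp loss and 4378 ± 438 with it (log2 −0.37, the direction opposite to that in all NFOL nuclei, adjusted p = 0.480).

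No other list held more than 1 call for Cnp loss. None of 10 OPC markers (median −0.30), 11 cholesterol synthesis genes (−0.51), 27 axon contact genes (0.16), 17 glutamate and GABA receptors (−0.12), 11 disease-associated oligodendrocyte genes (0.25), 6 stress response genes (−0.05), 2 cell cycle genes (0.15), 9 microglia markers (0.73) and 1 vascular marker (−0.50) passed. Of 10 neuron markers 1 rose, Kcnip4 (2.09 ± 0.43, adjusted p = 0.0311), which did not pass without WT replicate 1 (1.76, adjusted p = 0.0901) or by DESeq2 (2.03, adjusted p = 0.0818). Il33, an alarmin gene of mature oligodendrocytes, was nearest among the disease-associated genes (1.06 ± 0.27, adjusted p = 0.0592). Of all 7248 genes, 523 (7.22%) did not overlap between libraries with and without Cnp loss.

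No gene passed for 5xFAD in the summed profiles (0 of 7248, 0.0%, by edgeR and also by DESeq2), while 434 had an unadjusted p under 0.05 and 218 (3.01%) did not overlap between the groups. The gene with the smallest p was Dync1i1, a dynein motor subunit gene, at 104 and 131 CPM in WT, 71.0 and 81.9 in Cnp-/-, 27.0 and 26.2 in 5xFAD, and 38.1 and 35.7 in Cnp-/- 5xFAD. All 4 libraries with 5xFAD were lower (−1.58 ± 0.25, adjusted p = 0.0676). The ribosomal protein gene Rpl13 stood at 81.2 ± 16.8 CPM with 5xFAD and 31.3 ± 13.2 without (1.42 ± 0.27, adjusted p = 0.134), and the transcription factor gene Pbx3 at 99.1 ± 21.8 and 206 ± 52.3 (−1.07 ± 0.20, adjusted p = 0.134). The 14 newly formed genes had a median of 0.36 against 0.01 over all genes, with 12 above 0 and none called. Nor did any gene pass for the interaction of both mutations (0 of 7248, 0.0%, with 307 at an unadjusted p under 0.05). The gene with the smallest p was Tenm2, a teneurin gene, with an adjusted p of 0.621.

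The effect of Cnp loss differed between NFOL and MOL for 43 of 10902 genes (0.394%), of which 27 (0.248%) had the higher effect in NFOL and 16 (0.147%) the lower. With only the nuclei above the newly formed cut 60 of 9186 genes passed, 49 with the higher and 11 with the lower effect, and 25 of them were among the 43. Only 1475 genes passed the low-count filter in these nuclei alone, so this split can rest on genes near the floor there. Without Cnp-/- 5xFAD replicate 1 the split was 53 and 14. Enpp6 was among the 43, and the comparison takes the difference of the 2 effects in the same libraries. In MOL, Enpp6 was at 155 and 196 CPM in WT, 189 and 168 in 5xFAD, 46.3 and 63.4 in Cnp-/-, and 56.2 and 46.2 in Cnp-/- 5xFAD. It was lower in every MOL library with Cnp loss (log2 −1.67 ± 0.19, adjusted p = 0.0160). In NFOL it was at 80.9 and 243 CPM in WT, 259 and 148 in 5xFAD, 220 and 228 in Cnp-/-, and 252 and 253 in Cnp-/- 5xFAD, with overlapping groups. The effect in NFOL exceeded that in MOL by 2.13 ± 0.32 (edgeR quasi-likelihood test, adjusted p = 0.00434). Pooled Enpp6 was at 938 CPM above the newly formed cut and 34.0 CPM at or under it. Its NFOL sum therefore also follows the share of nuclei above the cut. The estimates on either side of the newly formed cut had opposite signs, and their difference was not tested. Above it the means were 986 ± 219 CPM with Cnp loss and 950 ± 111 without (n = 4 libraries each, log2 0.10 ± 0.26, adjusted p = 0.930), and at or under it, where 348 of the 465 nuclei lie, the log2 fold change was −1.09 ± 0.46 (adjusted p = 0.299), the sign of that in MOL. Neither passed.

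The leading genes of this comparison included some that were far apart in MOL. Robo1, an axon guidance receptor gene, was at 603 and 1066 CPM in MOL of WT, 700 and 353 in 5xFAD, 15.8 and 32.9 in Cnp-/-, and 84.3 and 9.23 in Cnp-/- 5xFAD. In NFOL it was at 441 to 689 CPM without Cnp loss and 259 to 480 with it (−0.62 ± 0.17, adjusted p = 0.0793), and it was lower without the nuclei over the astrocyte or microglia cut (−1.003 ± 0.194, adjusted p = 0.0236). Above the newly formed cut it stood at −1.11 ± 0.39 (adjusted p = 0.207). In all NFOL nuclei the difference of effects was 3.70 ± 0.42 (adjusted p = 0.000265). Fam13c was at 280 to 327 CPM in MOL without Cnp loss and 803 to 1104 with it, and in NFOL at 312 to 565 and 331 to 490 CPM (difference −1.72 ± 0.25, adjusted p = 0.00306). In both genes the groups did not overlap in MOL and overlapped in NFOL. The others with the smallest p were Dner, a Notch ligand gene (−4.46 ± 0.48), the calcium channel subunit gene Cacna2d3 (−4.95 ± 0.59) and the synaptic scaffold gene Ppfia2 (4.37 ± 0.61). Members of the lists among the 43 included, beside Enpp6 and Robo1, the BMP signal transducer gene Smad1 (2.10 ± 0.45) and the semaphorin gene Sema5a (1.87 ± 0.40). The spread between libraries was larger in MOL (biological coefficient of variation 0.466) than in NFOL (0.165). The comparison fitted 1 spread per gene to both classes, so its p-values can understate the spread in MOL. For Dner, Robo1, Cacna2d3 and Ppfia2 the SE of the MOL effect alone was larger (0.70, 0.59, 0.84 and 0.88), and for Fam13c it was smaller (0.14). In MOL alone Dner (adjusted p = 0.0610) and Ppfia2 (0.0741) did not pass the edgeR test, and Robo1, Cacna2d3 and Fam13c did.

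Against OPC, the effect of Cnp loss differed for 28 of 9365 genes (0.299%), 15 (0.16%) with the higher and 13 (0.139%) with the lower effect in NFOL. With only the nuclei above the newly formed cut, 23 of 6919 genes passed, 22 with the higher and 1 with the lower effect, and 4 of them were among the 28. The same limit of 1475 genes filtered in these nuclei alone holds for this split. Nfasc was at 166 and 180 CPM in OPC of WT and 182 to 272 CPM in the other 6 OPC libraries. In NFOL it was at 262 and 768 CPM in WT, 1205 and 712 in 5xFAD, 1179 and 1245 in Cnp-/-, and 2435 and 1269 in Cnp-/- 5xFAD, and the effect in NFOL was larger by 1.14 ± 0.22 (adjusted p = 0.0168). Pooled Nfasc was at 4638 CPM above the newly formed cut and 347 CPM at or under it, so its NFOL sum also follows the share of nuclei above the cut. For Zfp536 the effect was larger in NFOL as well (0.99 ± 0.18, adjusted p = 0.0168), with 301 to 569 CPM in NFOL without and 710 to 983 with Cnp loss, and 281 to 329 CPM in all OPC libraries. The 5 genes with the smallest p were Adamtsl1, a secreted matrix protein gene (1.87 ± 0.31), the formin gene Fmn1 (1.22 ± 0.22), Trpm3 (−1.15 ± 0.20), the GTPase regulator gene Arhgap26 (−1.37 ± 0.24) and Gpc5 (−0.73 ± 0.13), each at an adjusted p of 0.0129. The astrocyte markers Slc4a4 and Slc1a3 were also among the 28 (−1.08 ± 0.21 and −0.82 ± 0.18). In MOL the effect of Cnp loss was also above 0 for Fmn1 (1.25, adjusted p = 0.0160), Zfp536 (0.58, 0.0553), Nfasc (0.55, 0.0798) and Adamtsl1 (0.32, 0.420). Of these only Fmn1 passed there by the edgeR test. The larger effects in NFOL than in OPC are therefore not shown to be particular to NFOL. The part of the NFOL nuclei with astrocyte or mature markers in this comparison was not tested. In OPC alone none of 9264 genes passed for Cnp loss or 5xFAD by the edgeR test.

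In all NFOL nuclei no gene passed for a difference of the 5xFAD effect from that in MOL (0 of 10902 genes, 0.0%, with 399 at an unadjusted p under 0.05) or in OPC (0 of 9365, 0.0%, with 519) by the edgeR test. The smallest adjusted p was 0.0999 for Syne1, a nuclear envelope gene, against MOL and 0.266 for Rpl13 against OPC. With only the nuclei above the newly formed cut, 13 of 9186 genes passed against MOL, all with the higher effect in NFOL, and 2 of 6919 against OPC. In these nuclei alone 1475 genes passed the low-count filter, and 0 of them passed for 5xFAD. The further genes entered with the deeper MOL or OPC profiles. Profiles above the cut held 12264 to 56654 UMIs without 5xFAD and 53977 to 129342 with it. Whether the calls rest on genes near the floor was not tested. Leaving out WT replicate 1, Cnp-/- replicate 2 or 5xFAD replicate 2 gave 8, 7 and 5 genes against MOL.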

How the data were processed

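Nuclei from 8 libraries were profiled with a 10x droplet assay. The deposited values are UMI counts per gene and nucleus, made by the authors with Cell Ranger 6.1.2 (submitters' notes) on mm10, followed by removal of ambient RNA with CellBender, a filter on genes and UMIs per nucleus, and clustering and annotation in Seurat. Whether intronic reads were counted and how doublets were treated is not given in the sources used here. Cell classes are the authors'. The percent of mitochondrial UMIs per nucleus was used as deposited by the authors. Scrublet was run in scanpy 1.11.5.

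Counts of NFOL nuclei were summed per library and tested with edgeR 4.0.16 (filterByExpr, TMM, 1 mean per genotype, quasi-likelihood test, Benjamini-Hochberg adjusted p under 0.05). The effect of each mutation is the mean of its effects with and without the other. Effects were compared between classes with library as a block, class-by-mutation terms and 1 spread per gene for both classes. Scripts were tested on simulated data. Shares and median depths were compared by exact permutation over libraries. Thinned values use 1894 UMIs per nucleus. Intervals and floors (3 counts) cover counting error only. Levels are CPM of summed counts.

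The members and gene lists were chosen with earlier results of these data known. Named genes were the 3 NFOL markers, Cnp and transgene-linked genes, the genes of highest ratio over other classes, up to 15 genes in each direction per contrast by size of change among those past the threshold without overlap (or the 5 of smallest p), list members past a threshold with the 4 of highest level, and the 5 genes of smallest p in each class difference. Some genes that this rule names are not reported here. Alternatives were DESeq2 1.42.0, other size factors, no low-count filter, an additive model, a replicate block, equal numbers of nuclei, nuclei of high UMI counts left out and each library left out. The newly formed cut of 100 and the marker cuts, with the subsets they define, were added after the data were seen.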

Additional observations from a re-analysis of the deposited data

Results flagged for a closer look

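In 60 groups of 4 libraries with or without a mutation, a single library was compared with the other 3 by Dixon's test, which chance passes in about 1 of 20 groups. The NFOL share of the lineage in 5xFAD replicate 2, 8.94%, stood apart from 6.94% to 7.27% in the other libraries with 5xFAD. Enpp6 in NFOL was low in 5xFAD replicate 2 (148 CPM) beside 252 to 259 CPM in the others with 5xFAD, and in WT replicate 1 (80.9 CPM) beside 220 to 243 CPM in the others without it. Cnp was high in WT replicate 2 (118 CPM) beside 8.62 to 19.3 CPM in the other libraries without 5xFAD, of which 2 lack the gene. Thy1 was at 15.3 CPM in Cnp-/- 5xFAD replicate 1 and at 0 in the others, both among libraries with Cnp loss and among those with 5xFAD.

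The effect of Cnp loss differed between NFOL and MOL for 43 genes by the edgeR quasi-likelihood test of the difference, led by Dner (−4.46), Robo1 (3.70), Cacna2d3 (−4.95), Ppfia2 (4.37) and Fam13c (−1.72 on the log2 scale, NFOL minus MOL). It differed between NFOL and OPC for 28 genes, led by Adamtsl1 (1.87), Trpm3 (−1.15), Arhgap26 (−1.37), Gpc5 (−0.73) and Fmn1 (1.22, NFOL minus OPC).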

How the results depend on the processing

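The 116 genes called for Cnp loss became 116 with DESeq2 size factors, 62 with DESeq2, 344 with no filter on low counts, 15 without the 10% of nuclei of highest UMI count, 0 with 22 nuclei per profile, 9 above the newly formed cut, 5 without nuclei over the astrocyte cut and 10 without those over the astrocyte or microglia cut. Leaving out 1 library gave 15 to 366 calls: 366 without WT replicate 2, 15 without Cnp-/- replicate 1, 33 without WT replicate 1, 44 without 5xFAD replicate 2, 51 and 59 without Cnp-/- 5xFAD replicate 1 and 2, and 52 without Cnp-/- replicate 2.

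The other counts moved as follows. With no filter on low counts there were 47 calls for 5xFAD, 5 for the interaction, 162 and 76 for the Cnp difference from MOL and OPC, and 25 and 16 for the 5xFAD difference from MOL and OPC. DESeq2 gave 15 for the Cnp difference from OPC. Above the newly formed cut there were 13 and 2 for the 5xFAD difference from MOL and OPC, and at or under it 1 for the interaction and 13 for the Cnp difference from OPC. Leaving out 1 library gave 0 to 12 for 5xFAD (12 without WT replicate 2 and 9 without Cnp-/- replicate 1), 0 to 2 for the interaction, 22 to 69 for the Cnp difference from MOL (22 without 5xFAD replicate 1, 69 without WT replicate 1), 8 to 61 for that from OPC (8 without Cnp-/- 5xFAD replicate 1, 61 without WT replicate 2), 0 to 8 for the 5xFAD difference from MOL and 0 to 4 for that from OPC. The cause was not tested.

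The share differences by 5xFAD kept their direction under every alternative run. Leaving out 1 library, they were 2.61 to 3.40 points of the lineage, 6.50 to 7.99 of OPC and NFOL and 0.415 to 0.624 of all nuclei, at an exact p of 0.0571, the smallest possible. Above the newly formed cut they were 1.06 points of the lineage and 3.08 of OPC and NFOL. The differences by Cnp loss changed sign: of the lineage 0.650 points in nuclei with at least 1000 UMIs, 0.219 in NFOL nuclei with an Enpp6 or Bcas1 UMI, 0.536 above the newly formed cut and −0.879 to 0.781 without 1 library (0.401, 0.225 and 0.781 without Cnp-/- replicate 1, 5xFAD replicate 1 and 5xFAD replicate 2); of OPC and NFOL −1.23 at or under the cut and −0.534 to 2.92 without 1 library (−0.534 without WT replicate 1 and −0.026 without Cnp-/- 5xFAD replicate 1); of all nuclei 0.0417 above the cut and −0.233 to 0.125 without 1 library (0.125 without 5xFAD replicate 1). The difference in median depth was −1453 to −765 UMIs for Cnp loss and −1275 to −448 for 5xFAD without 1 library. Among named genes the fold change with Cnp loss changed sign for Bcas1 (−0.37 above the cut, −0.10 without nuclei over the astrocyte or microglia cut, −0.21 without those over the astrocyte cut, −0.093 to 0.70 without 1 library, lowest without WT replicate 1), Enpp6 (−1.09 at or under the cut, −0.10 without nuclei over the astrocyte cut) and Tcf7l2 (−0.34 at or under the cut), none past the threshold.

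Equal replicate numbers did not pair the libraries: the deviations from the genotype means of same-numbered libraries correlated at −0.090 to 0.071 over 7248 genes. With the replicate number as a block, 43 genes were called for Cnp loss (30 higher and 13 lower), and the 5xFAD share differences of 3.07, 7.27 and 0.538 points had an exact p of 0.0556, the smallest that relabelling within replicate numbers allows.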
